A study of Rattus norvegicus with 11 samples.

Results

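The 10 genes described here encode muscle enzymes of glycolysis and of its cytosolic redox branches. They are Pfkm, Aldoa, Tpi1, Gapdh, Pgk1, Pgam2, Eno3, Ldha, Ldhb and Gpd1. They were chosen by symbol as rows of a gene count table from rat soleus, and 10 of 10 symbols had a row among 16810. All 10 passed the filter on low counts, which kept 10814 genes. They were followed in 4 respects, namely abundance, spread over 11 animals, relation to the fast fibre myosins, and maternal diet.

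The animals were male Sprague Dawley offspring, 12 months old, 1 from each litter. The mothers of 6 animals ate a normal fat diet and are called control. The mothers of 5 animals ate a diet high in saturated fat, mainly lard, and sucrose, and these offspring are called high-fat. Mothers were on their diet from 3 weeks before mating to the end of lactation. Fat was 7% against 23.5% by weight in the series' design text and 6% against 23.3% in the treatment protocol, and sucrose was 10% against 20%. Control animals 1 to 6 are those the study names C73, A110, C60, H10, A89 and A75, and high-fat animals 1 to 5 are C91, H1, C25, H20 and A37. All offspring were weaned at day 21 and kept on standard chow, so the diets differed only in the mothers, and all were briefly fasted before collection. The dams' diet before birth and during suckling cannot be told apart, and diet fat and sucrose differed together.

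Glycolysis splits glucose into pyruvate in the cytosol and yields ATP without oxygen. Phosphofructokinase commits the sugar to the pathway, aldolase and triose phosphate isomerase make the triose phosphates, and the later enzymes recover ATP. Lactate dehydrogenase then regenerates NAD+ by reducing pyruvate to lactate, and glycerol-3-phosphate dehydrogenase oxidises cytosolic NADH by another route. Fast muscle fibres rely on this pathway more than slow fibres do. The soleus is a postural muscle built mostly of slow fibres, with a variable admixture of fast type IIA fibres, whose myosin is encoded by Myh2.

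The DNA in front of 4 of these genes' starts is printed to show how the members differ in short motifs that muscle and hypoxia factors are known to read. RefSeq's promoter table (assembly GRCr8) held 8 of the 10 members. Pgk1 and Gpd1 had no entry. The motifs searched on both strands of the 250 bases before each start were ACGTG (the core bound by HIF-1), CAGCTG (an E-box bound by myogenic factors), TCAGGTT (the MEF3 element of muscle promoters) and the MEF2 consensus. Over all 33469 promoters of that length, 16.6% held ACGTG, 12% CAGCTG, 3.3% TCAGGTT and 2.96% the MEF2 consensus. Capitals mark the matches, and each sequence runs 5′ to 3′ in the direction of the gene. The Ldha sequence is chr1:106507842-106508091 (plus strand), that of Aldoa is the second of its 3 listed starts at chr1:190837649-190837898 (minus strand), that of Pgam2 is chr14:84897875-84898124 (minus strand), and that of Ldhb is chr4:177177409-177177658 (minus strand).
Aldoa: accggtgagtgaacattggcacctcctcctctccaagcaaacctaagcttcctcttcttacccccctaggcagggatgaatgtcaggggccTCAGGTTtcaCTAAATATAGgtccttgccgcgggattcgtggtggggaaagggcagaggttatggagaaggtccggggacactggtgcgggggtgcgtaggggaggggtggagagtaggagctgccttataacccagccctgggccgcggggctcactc
Pgam2: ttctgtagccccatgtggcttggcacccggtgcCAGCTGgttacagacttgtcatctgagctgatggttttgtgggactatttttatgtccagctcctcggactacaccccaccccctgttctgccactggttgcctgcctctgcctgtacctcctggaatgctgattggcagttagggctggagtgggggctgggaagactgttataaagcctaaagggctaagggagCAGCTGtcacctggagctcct
Ldha: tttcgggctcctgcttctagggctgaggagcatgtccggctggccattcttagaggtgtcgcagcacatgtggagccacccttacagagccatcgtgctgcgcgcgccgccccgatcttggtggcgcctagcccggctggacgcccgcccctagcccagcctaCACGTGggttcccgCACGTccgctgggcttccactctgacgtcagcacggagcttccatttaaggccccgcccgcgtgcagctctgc
Ldhb: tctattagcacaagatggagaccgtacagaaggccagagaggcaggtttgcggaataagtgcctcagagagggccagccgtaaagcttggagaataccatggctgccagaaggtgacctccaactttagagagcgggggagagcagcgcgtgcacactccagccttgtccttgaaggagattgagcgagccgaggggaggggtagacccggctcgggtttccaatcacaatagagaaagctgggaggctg
The second Aldoa start held TCAGGTT 159 to 153 bases before the start and a MEF2 match 149 to 140 bases before it. Pgam2 held CAGCTG at 217 to 212 and at 21 to 16 bases before its start. Ldha held 3 ACGTG matches, of which 2 overlap in the palindrome 87 to 82 bases before the start and 1 lies at 73 to 69. The Ldhb window, like those of Eno3, Tpi1 and the first Aldoa start, held none of these letters, while Gapdh, Pfkm and the third Aldoa start held 1 ACGTG match each. The matches are a description of sequence, since no binding was measured.

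Libraries held 10156225 to 15362013 counts. The slow myosin Myh7 lay between 17367 and 25146 CPM (counts-per-million) in every library, as in a slow muscle, and all 9 slow fibre markers were measured. Control animal 5 stood apart in 4 myelin genes, whose summed level was 1763 CPM there, 111 to 233 CPM in the other controls and 107 to 253 CPM in the high-fat animals. Without it, the number of members called below stayed at 0 for diet and for correlation with the fast myosins. For the slope on the fast myosins it went from 1 to 0, as it also did without other single animals, given below.

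Each member was read from counts whose depth differed widely. CPM, the unit of all levels here, divides a gene's count by the scaled library total, without correction for transcript length. No lengths were used here, so the levels of different genes are not compared. Aldoa, the aldolase of muscle, had 66485 to 160714 counts in a library, and Eno3, the muscle enolase, 15791 to 36598. Ldhb, the heart-type lactate dehydrogenase subunit, had 17987 to 36424 counts, and Pgam2, the muscle phosphoglycerate mutase, 9505 to 26985. Pfkm, the muscle phosphofructokinase, had 7476 to 13864 counts, Tpi1, triose phosphate isomerase, 3708 to 7663, and Pgk1, phosphoglycerate kinase, 2512 to 4606. Ldha, the muscle-type lactate dehydrogenase subunit, had 613 to 1362 counts, and Gpd1, cytosolic glycerol-3-phosphate dehydrogenase, 295 to 1208.

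Gapdh, the dehydrogenase often used as a reference gene, had only 17 to 42 counts in a library. RefSeq names 79 pseudogenes after Gapdh, 30 after Ldha, 9 after Aldoa, 8 after Pgk1, 3 after Tpi1 and 1 after Ldhb. It names none after Pfkm, Pgam2, Eno3 and Gpd1. Sequencing ran for 36 cycles, and the counting rule for reads with several matches was not given in the sources used here. The part of these copies in the counts was not tested, so the levels of Gapdh, Ldha, Aldoa and Pgk1 are uncertain, as are those of Tpi1 and Ldhb. Among other enzymes of the pathway, Eno1 with 30 named pseudogenes had 424 to 736 counts, Pkm with 19 had 438 to 771, and Pgam1 with 13 had 5 to 31. Gpi, with none, had 4397 to 7169.

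**Figure D1:**
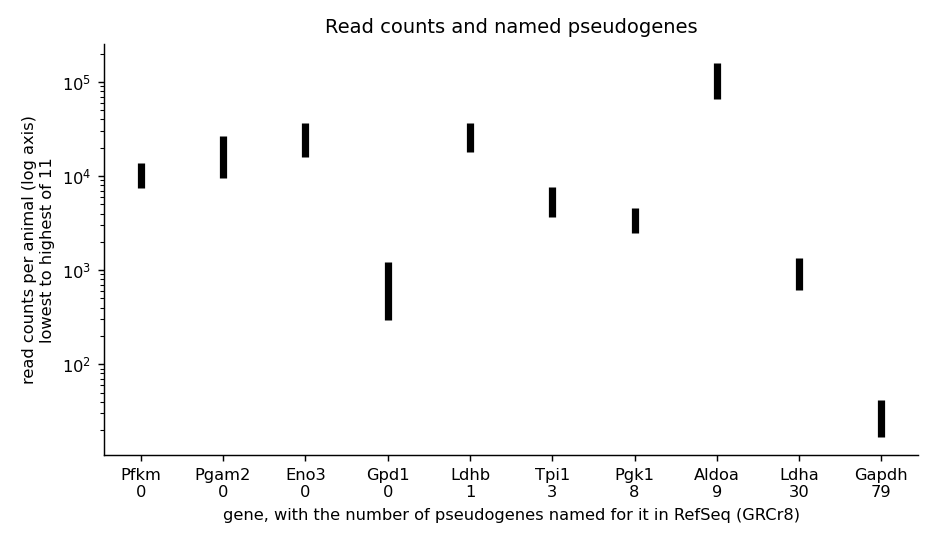
Range of read counts per library over the 11 animals (log axis) for each member, with the number of pseudogenes RefSeq names after it written under the gene. Gapdh, with 79 named pseudogenes, lies at 17 to 42 counts and Aldoa, with 9, at 66485 to 160714.

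The spread between animals exceeded counting error for 9 of 10 members whichever animal was left out, and for Gapdh only with control animal 4. Counting error was 0.323% to 3.73% for those 9 and 19.4% for Gapdh. The share of all genes that exceed it was not computed, so the count is not particular to the members. For Pgam2 the 11 animals ranged over 2.62-fold with a coefficient of variation of 31.8%, where counting alone would give 0.819%. Aldoa varied by 30.7% (counting error 0.323%) over a 2.57-fold range, and Eno3 by 28.7% (0.666%) over 2.13-fold. Ldha varied by 26.1% (3.52%) over 2.12-fold. These values put the SD of log2 CPM of Aldoa at the 96.3rd percentile of genes of similar level, with Pgam2 at the 93.8th, Eno3 at the 87.0th and Ldha at the 86.9th. Among all genes tested the percentiles were lower, at 78.1 for Aldoa, 78.8 for Pgam2, 73.4 for Eno3 and 68.3 for Ldha.

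Pfkm, Tpi1, Pgk1 and Ldhb were steadier. Pfkm varied by 16.1%, Tpi1 by 17.5%, Pgk1 by 13.0% and Ldhb by 13.6%. Their SDs lay between the 21.7th and 56.8th percentiles of genes of similar level, and between the 28.2nd and 46.4th of all genes. Gapdh varied by 28.4%, where its low counts alone would give 19.4%. It lay at the 20.7th percentile of genes of similar level and the 64.9th of all genes. Without control animal 4, at 3.95 CPM, Gapdh varied by 15.8%, below the 19.7% that counting would give. Gpd1 varied by 25.6% over a 3.47-fold range and lay at the 93.9th percentile of genes of similar level and the 81.8th of all genes. That range came from high-fat animal 1 at 24.6 CPM, below the other 10 animals, which lay between 49.1 and 85.2 CPM.

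The members were high and low in much the same animals. Control animal 6 had 9 of 10 members above their own median over the animals, high-fat animal 2 had 9, and control animals 2 and 4 had 8 each. Control animal 1 had no member above its median, and control animal 3 and high-fat animals 3 and 5 had 1 each. High-fat animal 5 was the lowest of the 11 for 7 members. Summed, the 10 genes took from 1.08% of all counts in high-fat animal 5 to 1.90% in control animal 4. Aldoa made up 12137 of the summed 20653 CPM in control animal 4 and 4726 of 9589 CPM in high-fat animal 5. The sum thus follows Aldoa closely, and these are parts of the counted reads, not of transcripts.

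The animals also differed in fast myosin, the sum of Myh1, Myh2 and Myh4. In the control animals, numbered 1 to 6, it was 572, 2098, 134, 2389, 1162 and 2451 CPM. In high-fat animals 1 to 5 it was 667, 2370, 316, 202 and 427 CPM. The sum thus ranged over 18.3-fold, the diet groups overlapped, and Myh2 made up from 49.5% to 97.6% of it. The 4 animals with the highest sums were control 2, 4 and 6 and high-fat 2, and these were also the 4 that had the most members above their median. The other animals did not follow that order closely. High-fat animal 4, at 202 CPM, had 5 members above their median, while control animal 1, at 572 CPM, had 0. High-fat animal 1, at 667 CPM, had 2, and control animal 5, at 1162 CPM, had 6.

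**Figure D2:**
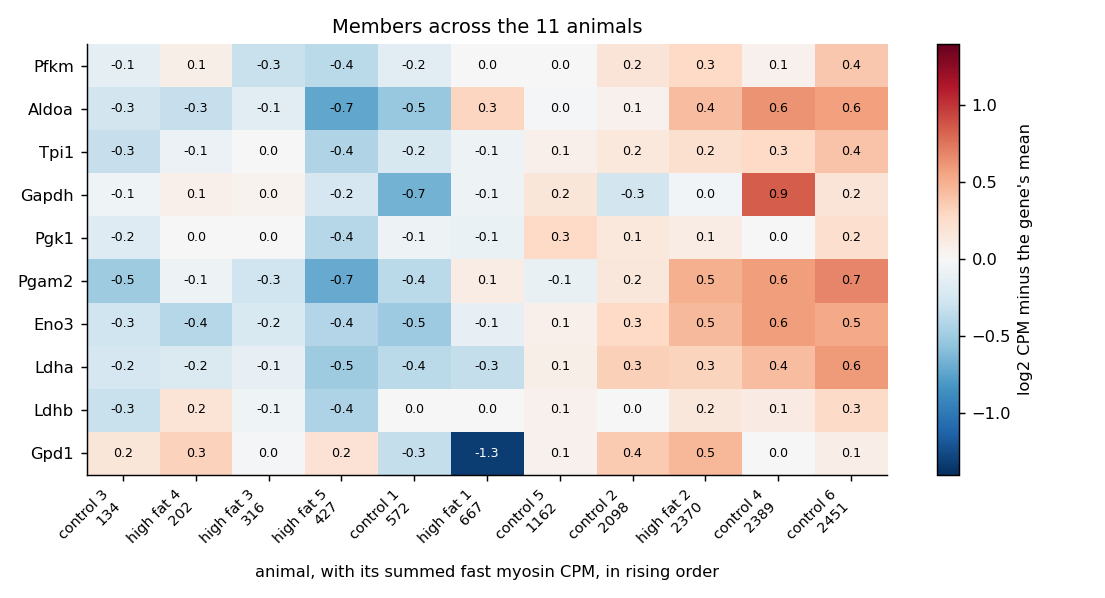
Log2 CPM of each member minus that gene's mean over the 11 animals, with animals ordered from left to right by their summed fast myosin CPM, written under each name. Members other than Gapdh and Gpd1 are mostly below their mean on the left and above it on the right, and Gpd1 is 1.3 log2 units below its mean in high-fat animal 1.

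The relation to the fast myosins was tested as a slope, the log2 change of a gene per doubling of the myosin sum, in an edgeR quasi-likelihood fit over all genes. Slopes were positive for 10 of 10 members, and for 5198 of all 10814 genes. That of Gpd1 was -0.0090 with library size scaling, which moved the median slope of all genes from -0.0042 to -0.0450. Other alternatives, listed in the closing section, also turned the slopes of some members negative. In the main fit Eno3 alone was called at an adjusted p under 0.05. Over all genes, 0.129% were called with a positive slope, and 0.24% in either direction. At an unadjusted p under 0.05, 7 of 10 members had a positive slope, against 7.48% of all genes. The median slope was 0.12 for the members and -0.0042 for all genes. In whole muscle, fewer fibres of a type and less RNA per fibre cannot be told apart.

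Eno3 gave the steepest relation for its error. Its level was 1288 to 2749 CPM in the controls (median 2079) and 1698, 2519, 1588, 1389.7 and 1377 CPM in high-fat animals 1 to 5. The 4 animals with the most fast myosin were also the 4 highest for Eno3. Eno3 rose by 0.23 ± 0.04 (SE) on the log2 scale per doubling (edgeR adjusted p = 0.0483). The call stood close to the threshold. When 1 animal at a time was left out, it held without control animal 1 or control animal 3 and was lost without each of the other 9, at adjusted p values of 0.0393 to 0.161. The slope itself stayed between 0.21 and 0.28 in those fits. The call was also lost with diet as a covariate, at a slope of 0.22 (adjusted p = 0.0990), and over all 23 alternatives its adjusted p ranged from 9.02e-05 to 1.

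Pgam2, Ldha and Aldoa had slopes near that of Eno3, and Tpi1 a smaller one, and these 4 missed the threshold. The slope was 0.24 ± 0.05 for Pgam2 (edgeR adjusted p = 0.0780), 0.19 ± 0.04 for Ldha (adjusted p = 0.0801), 0.13 ± 0.03 for Tpi1 (adjusted p = 0.0976) and 0.21 ± 0.06 for Aldoa (adjusted p = 0.113). DESeq2 called these 4 and Eno3, but it called 563 genes in all against 26 by edgeR. The remaining slopes were smaller, at 0.10 ± 0.04 for Pfkm, 0.08 ± 0.04 for Pgk1 and 0.07 ± 0.04 for Ldhb, with edgeR adjusted p values of 0.193, 0.281 and 0.382. Gapdh had a slope of 0.09 ± 0.08 (adjusted p = 0.598) and Gpd1 of 0.03 ± 0.08 (adjusted p = 0.894).

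Correlations over the 11 animals, which use no count model, put Eno3 first by Pearson's r and Tpi1 first by Spearman's rho. Pearson's r of log2 CPM with log2 fast myosin was 0.87 for Eno3 (permutation p = 0.00113), and Spearman's rho was 0.84 (p = 0.00237). For Tpi1, r was 0.82 (permutation p = 0.00279) and rho 0.87 (p = 0.00092). For Pgam2, r was 0.80 (p = 0.00413) and rho 0.84 (p = 0.0022), both by permutation, and for Ldha r was 0.80 (p = 0.00493) and rho 0.75 (p = 0.0115). Aldoa had an r of 0.73 (permutation p = 0.0140) and a rho of 0.82 (p = 0.00327). After Benjamini-Hochberg adjustment over 10811 genes the smallest p among the members was 0.194, for Eno3, so 0 of 10 passed, against 0.0647% of all genes with a positive r and 0.074% in either direction.

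The weaker members spread from Pfkm to Gpd1. For Pfkm, r was 0.68 (permutation p = 0.0219) and rho 0.67 (p = 0.0274), and for Pgk1 r was 0.61 (p = 0.0449) and rho 0.55 (p = 0.0841). Ldhb had an r of 0.56 (permutation p = 0.0756) and a rho of 0.56 (p = 0.0769). Gapdh had an r of 0.32 (permutation p = 0.348) and a rho of 0.36 (p = 0.272), and Gpd1 an r of 0.10 (p = 0.826) and a rho of 0.05 (p = 0.883).

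Leaving out the 2 animals farthest from the median of fast myosin, control 3 and control 6, left r at 0.90 for Eno3, 0.81 for Ldha, 0.73 for Tpi1 and Pgam2, 0.72 for Aldoa and 0.64 for Pfkm. It was 0.47 for Pgk1, 0.32 for Gapdh, 0.18 for Gpd1 and 0.28 for Ldhb, so the relation of Ldhb rests on those animals. Within the diet groups r was 0.86 for Eno3, 0.80 for Tpi1 and Pgam2, 0.78 for Ldha, 0.72 for Aldoa and 0.66 for Pfkm. Within-group values were 0.55 for Pgk1 and Ldhb, 0.30 for Gapdh and 0.05 for Gpd1. Of the single myosins, Myh2 had r of 0.87 with Eno3, 0.79 with Pgam2 and Tpi1, 0.78 with Ldha and 0.75 with Aldoa. Myh1 had r between 0.05 and 0.50 with the 10 members, and Myh4 between -0.36 and 0.35. In the count fit, the Eno3 slope was 0.20 on Myh2 alone (edgeR adjusted p = 0.0600), 0.07 on Myh1 alone and 0.02 on Myh4 alone. The slow myosin Myh7 had r between -0.18 and 0.41 with the members.

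**Figure D3:**
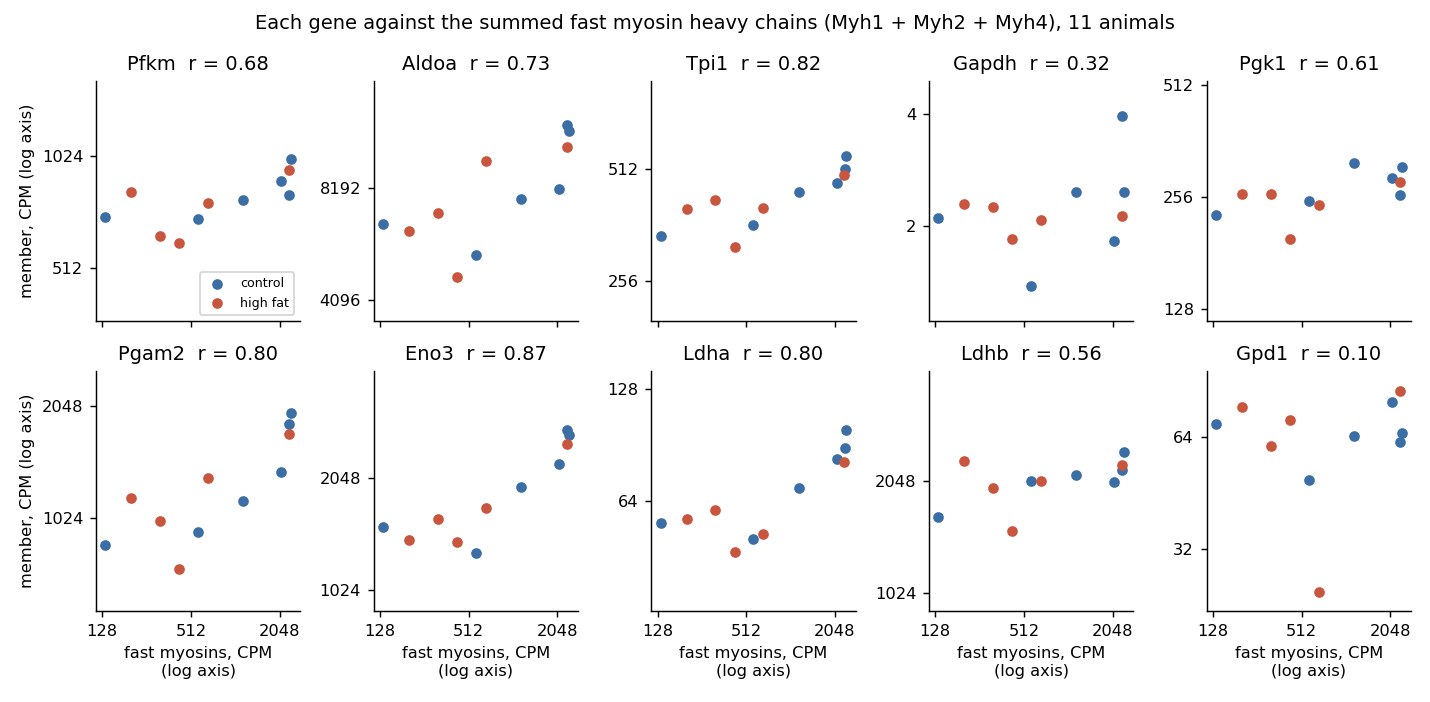
CPM of each member against the summed CPM of Myh1, Myh2 and Myh4 (both axes log), 1 point per animal, colours marking maternal diet. The 4 animals with the most fast myosin, at the right, hold the 4 highest Eno3 values, and Gpd1 shows no order along the axis.

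Of the marker lists other than fast fibre, 1 passed the test against the fast myosins. Summed CPM of 6 fibroblast and matrix genes, among them Col1a1, correlated with it at r = -0.83 (permutation p = 0.00278, adjusted over 8 marker lists 0.0111; rho -0.85, p = 0.00189). That sum was 900 to 3287 CPM in the controls and 1097 to 3118 CPM in the high-fat animals. Summed macrophage genes correlated at r = -0.68 (permutation p = 0.0251, adjusted 0.0670; rho -0.68, p = 0.0257), with 441 to 1313 CPM in the controls and 346 to 1681 CPM in the high-fat animals. The other lists gave r of 0.42 for slow fibre (permutation p = 0.202), -0.42 for adipocyte (p = 0.194), 0.17 for endothelium, 0.14 for erythroid cells and 0.05 for nerve. All 6 matrix and all 8 macrophage genes had negative slopes, as had 5616 of all 10814 genes, and none of these markers was at 0 in any library. With their summed level as a covariate, chosen after seeing the data, the slope was 0.13 for Eno3, 0.09 for Ldha, 0.08 for Pgam2, 0.04 for Tpi1 and 0.02 for Aldoa, and no member was called. The 9 fast fibre genes other than myosins gave r = 0.96 (permutation p = 2e-05, adjusted 0.00016; rho 0.97, p = 1e-05, the smallest the permutations can give).

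The members moved together more than gene pairs did in general. Over the 45 pairs of members the median r of log2 CPM across the 11 animals was 0.68, from -0.11 to 0.95, while the median over all pairs of genes was -0.0015. Without Gapdh and Gpd1, 28 pairs had a median of 0.82 and none was below 0.57. The closest pairs were Eno3 with Ldha, Tpi1 with Pgam2, Aldoa with Pgam2 and Tpi1 with Ldha, at r of 0.94 to 0.95. The 9 pairs with Gpd1 had a median of 0.16, and the lowest was with Aldoa. Animals, libraries and their scaling are shared by both genes of a pair, so these r values are descriptive.

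Some genes outside the members followed them closely. Pfkm was most like Pygm, muscle glycogen phosphorylase, at r = 0.98, and Aldoa was most like Mb, myoglobin, at 0.97. Pgam2 was most like Tmod4, the skeletal muscle tropomodulin, at 0.97, and Pgk1 most like Coq3, an enzyme of ubiquinone synthesis, at 0.97. The nearest gene was Alad for Tpi1, Npr2 for Eno3, Pskh1 for Ldha and Atg14 for Ldhb, at r of 0.96 to 0.97, and Tut1 for Gapdh at 0.95 and Tmem196 for Gpd1 at 0.97. The genes most like the mean of the 10 members were Pgp, phosphoglycolate phosphatase, and Dhrs11, both at 0.97. Next came Syngr1, Alad, Ptges2, Cda, Pskh1, Gamt and RGD1303003. The list of 10 ended with Pfkfb1 at 0.95, a bifunctional enzyme that sets the level of the phosphofructokinase activator fructose-2,6-bisphosphate. Each was picked as the highest r among all genes tested, and no p is given.

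Maternal diet was compared in the same kind of fit, high-fat minus control. Estimates were below 0 for 10 of 10 members, although that of Gpd1 was 0.0081 with library size scaling, which moved the median of all genes from 0.0039 to 0.0365. None was called (background 0%), and none reached an unadjusted p under 0.05 (background 4.84%). Lower estimates made up 49.1% of all genes. The groups overlapped for every member, as for all but 0.37% of genes. The members' median log2 fold change was -0.15, beside 0.0039 for all genes, and adjusted p values were 0.974 or above by edgeR. DESeq2 and limma-voom also called 0 members.

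At the entry and the splitting of the sugar, Pfkm was 697 to 1007 CPM in the controls (median 793) and 769, 942, 626, 820 and 599 CPM in high-fat animals 1 to 5. High-fat animals 3 and 5 lay below all controls and the others within the control range. The log2 difference was -0.11 ± 0.14 (SE), with a 95% interval of -0.42 to 0.20. Aldoa was 5425 to 12137 CPM in the controls (median 7915) and 9671, 10545, 7054, 6279 and 4726 CPM in the high-fat animals. Only high-fat animal 5 lay below the controls, and the log2 difference was -0.17 ± 0.25 (-0.72 to 0.38). Tpi1 was 339 to 557 CPM (median 458) in the controls and 404, 493, 423, 401 and 317 CPM in the high-fat animals, so that again high-fat animal 5 alone fell below them. Its log2 difference was -0.14 ± 0.15 (-0.46 to 0.18).

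In the lower stage, which recovers ATP, Gapdh was 1.39 to 3.95 CPM in the controls (median 2.28) and 2.08, 2.13, 2.26, 2.29 and 1.85 CPM in the high-fat animals, at a log2 difference of -0.15 ± 0.25 (-0.70 to 0.39). Its high-fat values lay inside the control range. Pgk1 was 229 to 316 CPM (median 274) in the controls and 244, 281, 260.4, 260.5 and 197 CPM in the high-fat animals, at -0.14 ± 0.12 (-0.40 to 0.11). Pgam2 was 868 to 1961 CPM (median 1254) in the controls and 1317, 1730.4, 1007, 1164 and 748 CPM in the high-fat animals. High-fat animal 5 was below every control for Pgk1 and Pgam2, and the Pgam2 difference was -0.18 ± 0.25 (-0.72 to 0.36). Eno3, whose high-fat values all lay inside the control range, differed by -0.27 ± 0.22 (-0.74 to 0.21), with group means of 1714 ± 470 (SD, n = 5) for high-fat and 2060.3 ± 596 (SD, n = 6) for control.

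Of the enzymes that handle cytosolic NADH, Ldha showed the largest estimate of the 10 members. It was 50.4 to 99.0 CPM in the controls (median 76.1) and 52.3, 81.5, 60.5, 57.2 and 46.6 CPM in the high-fat animals, of which high-fat 5 lay below the controls. The log2 difference was -0.32 ± 0.19 (-0.73 to 0.09), at an unadjusted p of 0.112 by edgeR. Ldhb was 1643 to 2460 CPM in the controls (median 2088) and 2047, 2268, 1961, 2322 and 1506 CPM in the high-fat animals, at -0.05 ± 0.14 (-0.35 to 0.25), and here too only high-fat 5 fell below the controls. Gpd1 was 49.1 to 79.4 CPM in the controls (median 65.0) and 24.6, 85.2, 60.6, 77.0 and 71.2 CPM in the high-fat animals. One high-fat animal was below and 1 above all controls for Gpd1, and the difference of -0.03 ± 0.24 (-0.55 to 0.49) turned to 0.18 without high-fat animal 1.

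**Figure D4:**
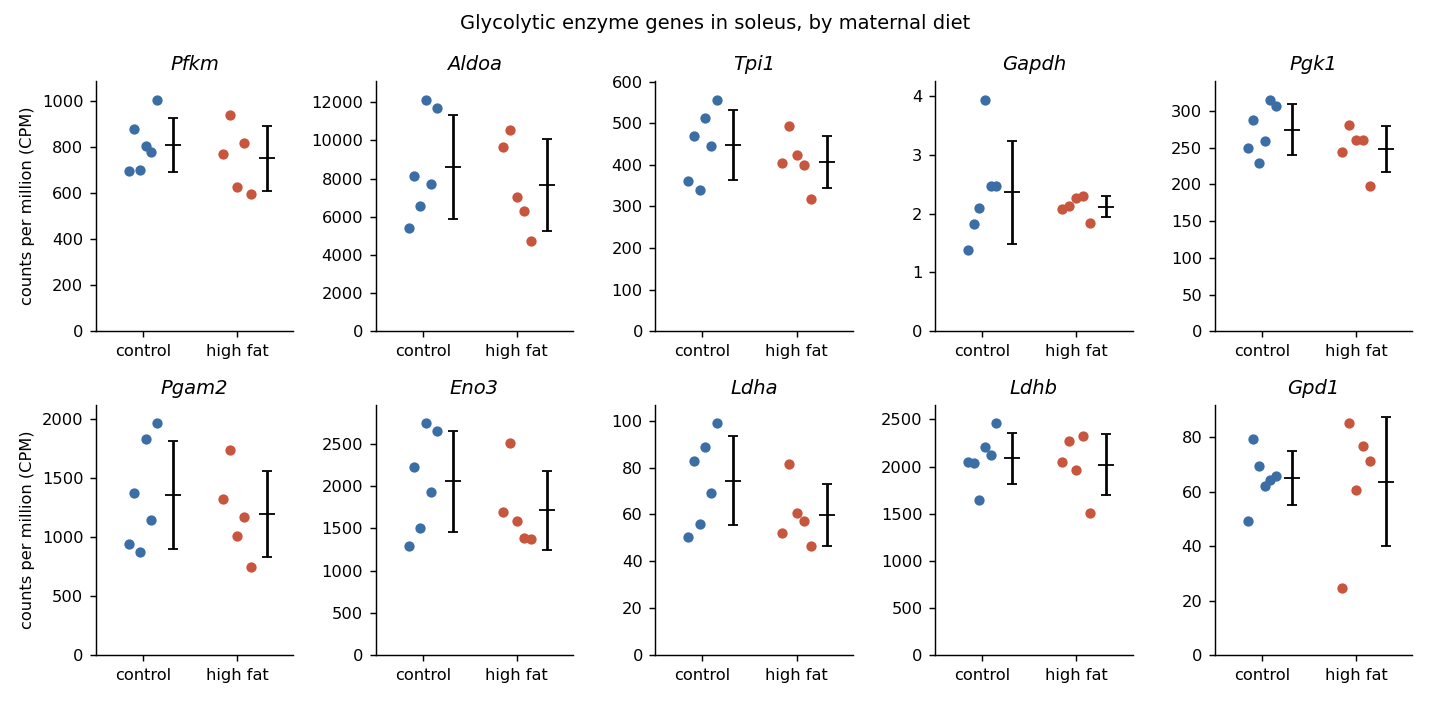
CPM of each member by maternal diet, 1 point per animal (6 control, 5 high-fat), with the group mean and SD as bars; each panel has its own axis from 0. The groups overlap for all 10 genes, and 1 high-fat animal at 24.6 CPM sets the SD of Gpd1.

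**Figure D5:**
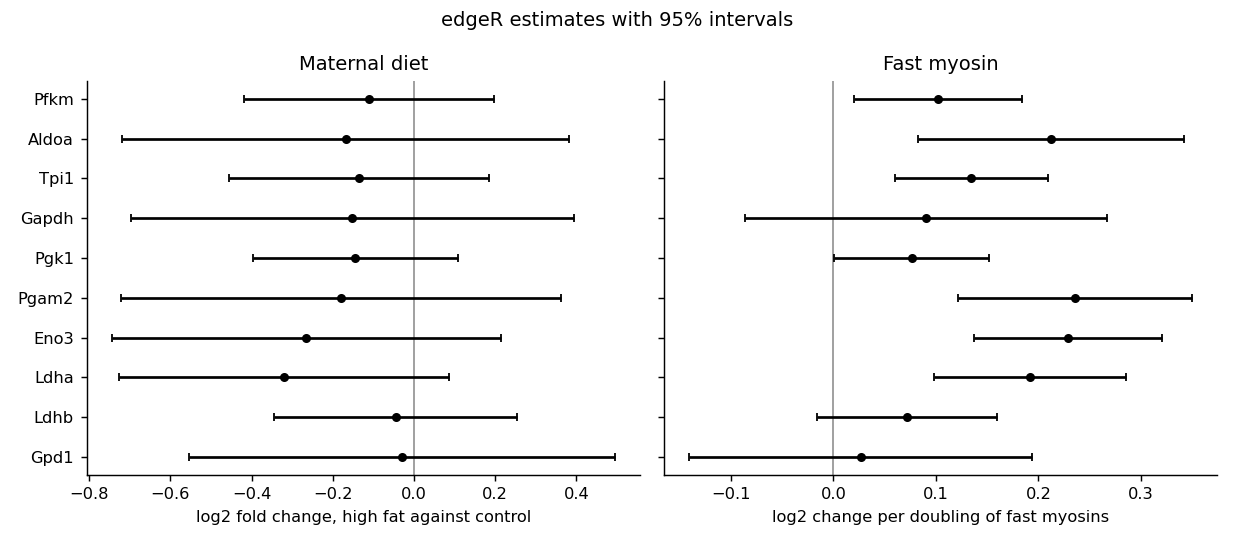
EdgeR estimates with 95% intervals for each member, on the left the log2 difference of high-fat from control and on the right the log2 change per doubling of summed fast myosin. All 10 diet intervals include 0, while 7 of the 10 fast myosin intervals lie above it before adjustment for multiple testing.

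Marker lists had 0 genes called for diet, with edgeR adjusted p values of 0.974 or above. Of 12 measured fast fibre genes, 11 had lower estimates in the high-fat animals (median log2 -0.70), and all 8 macrophage genes had higher ones (median 0.65, 2 at an unadjusted p under 0.05). All 4 nerve genes had lower ones (median -1.54, 2 at an unadjusted p under 0.05), with control animal 5 the high library. Among all genes, 49.1% had lower estimates, 4.84% had an unadjusted p under 0.05 by edgeR, and the median was 0.0039. Genes of a list share the same animals and libraries, so these counts are descriptive. With the fast myosin sum as a covariate the diet estimate was 0.03 for Aldoa and Ldhb, 0.07 for Pgam2 and 0.0047 for Tpi1, against -0.17, -0.05, -0.18 and -0.14 without it. The other 6 stayed below 0, at -0.14 for Ldha, -0.08 for Pgk1, -0.05 for Gapdh and Eno3, -0.02 for Pfkm and -0.0056 for Gpd1. Whether fibre make-up plays a part in the diet estimates was not tested further.

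The 2 lactate dehydrogenase subunits were also compared as a ratio within each library, which no scaling of the library can move. The level of this ratio is not a share of transcripts, since no transcript lengths were used. The part of pseudogene copies in the Ldha and Ldhb counts was not tested. The log2 ratio of Ldha to Ldhb counts was -5.09 ± 0.22 (SD, n = 5) in the high-fat animals and -4.84 ± 0.28 (SD, n = 6) in the controls. The difference of -0.25 had a 2-sided exact permutation p of 0.147. Without control animal 1 it was -0.35 (exact permutation p = 0.0238), and over its 13 alternatives the p ranged from 0.0238 to 0.286. Over the 11 animals the ratio correlated with fast myosin at r = 0.64 (permutation p = 0.0369) and rho = 0.65 (p = 0.0363), with r = 0.80 without control 3 and control 6 and 0.59 within the diet groups, a relation looked at after the data were seen.

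Plasma insulin was recorded for 10 animals, and its slope was fitted because the series concerns insulin resistance. No member was called (background 0%), and 0 of 10 reached an unadjusted p under 0.05, against 3.48% of all genes. Slopes were negative for 9 of 10, and for 51.5% of all genes.

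The rest of the pathway was described from a list of 26 genes, of which 25 had a row and 21 passed the filter. For diet, 11 had higher and 10 lower estimates, with a median of 0.04, and 0 were called or reached an unadjusted p under 0.05. The largest was for Pfkfb3, which makes fructose-2,6-bisphosphate, at 14.8 ± 10.4 CPM (SD, n = 5) in high-fat and 9.07 ± 2.86 CPM (SD, n = 6) in control animals, a log2 difference of 0.71 ± 0.37 (edgeR adjusted p = 0.974). High-fat animal 4, at 32.8 CPM, carried it, since the other high-fat animals lay between 7.82 and 13.6 CPM and the difference was 0.18 ± 0.27 without that animal, an alternative chosen after seeing the data. For the fast myosin slope, 14 were positive and 7 negative, 10 of 21 had an unadjusted p under 0.05 (17.6% of all genes in either direction) and 0 were called by edgeR. Positive slopes included Fbp2, the muscle fructose bisphosphatase, at 0.60 ± 0.12 (edgeR adjusted p = 0.0585), Pfkfb1 at 0.30 ± 0.07 (adjusted p = 0.0874), the lactate exporter Slc16a3 at 0.35 ± 0.10 and pyruvate kinase Pkm at 0.12 ± 0.03 (adjusted p = 0.0990). Negative ones included Pfkp, the platelet-type phosphofructokinase, at -0.29 ± 0.07 (edgeR adjusted p = 0.0801), and Eno2, the neuronal enolase, at -0.19 ± 0.05 (adjusted p = 0.115). Hk2, the hexokinase of muscle, had a slope of -0.04 ± 0.05.

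Of 19 transcription factors and cofactors listed for fast fibre, hypoxia and mitochondrial programmes, 16 were measured. None was called for diet or fast myosin by edgeR, and 2 of 16 had a fast myosin slope at an unadjusted p under 0.05, against 17.6% of all genes. The slope was -0.06 ± 0.04 for Hif1a, whose protein binds the ACGTG core printed for Ldha.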

How the data were processed

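PolyA RNA from soleus was sequenced on a Genome Analyzer IIx for 36 cycles, per the labels' protocols. The table holds whole-number read counts per gene symbol for 11 animals, as deposited by the authors. FastQC, BWA, HTSeq and edgeR are named in the submitters' processing notes; their versions, roles, genome build and strand setting were not given in the sources used here. Groups came from the diet label.

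Counts were scaled by TMM in edgeR 4.0.16 (R 4.3.3), filtered with filterByExpr and tested with the quasi-likelihood test, Benjamini-Hochberg adjusted over all genes at 0.05. Log2 CPM used a prior count of 2. Permutation tests of correlations used 100000 resamples in NumPy 2.4.6. The exact test of the Ldha to Ldhb ratio used all 462 splits in SciPy 1.17.1. The fast myosin sum is a measured covariate. The scripts were tested on simulated data. Alternatives were library size scaling, no filter, DESeq2 1.42.0, limma 3.58.1 voom, covariates, single myosins and leaving out each animal. The named genes are the members, the listed pathway genes, the myosins and, for each member and for their mean, the most correlated genes outside them. Members and lists were chosen with earlier results of these data known. Promoters come from RefSeq GRCr8, and the study files hold no coordinates.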

Additional observations from a re-analysis of the deposited data

Results flagged for a closer look

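In the high-fat group, Eno3 in animal 2, at 2519 CPM, lay far from the other 4 animals by Dixon's criterion. The same animal's summed fast myosin, at 2370 CPM, also lay far from the other 4. Of 24 groups of values checked, 2 met the criterion, and chance alone marks about 1 in 20 groups. Both flags were taken on CPM rather than log2 CPM and fell on the same animal, so they are not 2 independent results.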

How the results depend on the processing

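No member was called for diet, insulin or the fast myosin correlation under any alternative run. For the fast myosin slope, 1 member was called in edgeR with TMM scaling and with DESeq2's size factors; the count was 0 with library size scaling, no filter, limma-voom, the letter of the animal's name or diet as covariate, and Myh2 alone (Eno3 slope 0.20) or Myh1 or Myh4 alone (0.07 and 0.02), 5 with DESeq2, and 0 to 1 when 1 animal was left out. It was 0 with macrophage and matrix markers as covariate, or without control 3 and high-fat 5, both chosen after seeing the data. Over all genes, 26 were called, against 563 with DESeq2, 16 with Myh2, 13 with Myh1, 1 with Myh4, 10 with diet, 4 with the markers, and 8 to 48 with 1 animal left out. For diet, DESeq2 called 7 genes against 0.

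Diet estimates turned positive for Gpd1 with library size scaling (0.0081), without control 2 (0.04) and without high-fat 1 (0.18); for Aldoa (0.033), Tpi1 (0.0047), Pgam2 (0.073) and Ldhb (0.033) with fast myosin as covariate; for Ldhb with the markers (0.0033), without control 6 (0.0067) and without high-fat 5 (0.043); and for Gapdh without control 4 (0.045). With 1 animal left out they ranged from -0.15 to 0.18 for Gpd1, -0.11 to 0.043 for Ldhb, -0.27 to 0.045 for Gapdh, -0.31 to -0.037 for Aldoa, -0.35 to -0.044 for Pgam2, -0.21 to -0.041 for Pfkm, -0.21 to -0.058 for Tpi1, -0.19 to -0.072 for Pgk1, -0.45 to -0.17 for Eno3 and -0.46 to -0.22 for Ldha. Slopes turned negative for Gpd1 with library size (-0.0090), the name letter (-0.10) and without high-fat 2 (-0.0068), with Myh4 alone for Aldoa (-0.063), Gapdh (-0.12) and Pgam2 (-0.026), and with the markers for Pgk1 (-0.018) and Ldhb (-0.0094); with 1 animal left out the Gpd1 slope ranged from -0.0068 to 0.062. The Ldha to Ldhb difference ranged from -0.35 to -0.19 with 1 animal left out. The causes were not tested. The count table's column names carry 5 numbers shared by both diets, whose animals come from different litters. Deviations of animals with the same number correlated at -0.35 to 0.04, and none was closest to its own number. Whether animals with the same number shared a batch was not tested. With that replicate block, chosen after seeing the data, 0 members and 0 genes were called for diet, and the Ldha to Ldhb difference was -0.21 (exact permutation p = 0.25). Depth limits Gapdh, at 17 to 42 counts.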

Other observations

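Among genes outside the members, Aldoart1, a retrogene of aldolase A known for expression in testis, had 836 to 2974 counts in every soleus library. Its counts came to 1.13% to 2.30% of those of Aldoa, and its slope was 0.32 ± 0.08 (SE) on the log2 scale per doubling of fast myosin, beside 0.21 ± 0.06 for Aldoa. This gene was chosen after its values were seen, and whether the reads arose from Aldoa was not tested.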
